A study of Mus musculus with 16 samples.

Results

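A set of 9 genes of calcium handling by the sarcoplasmic reticulum was examined in 2 muscles, the gastrocnemius (Gas) and the soleus (Sol), of LSD1-mKO mice and of wild type (WT) mice, all treated with dexamethasone (Dex). The 9 were taken by symbol from the 24421 genes counted: the calcium pumps *Atp2a1* and *Atp2a2*, the pump regulators *Sln* and *Pln*, the calsequestrins *Casq1* and *Casq2*, the release channel *Ryr1*, the junction gene *Jph1* and the cytosolic buffer *Pvalb*. All 9 passed the filter on low counts in both muscles. LSD1-mKO mice carried floxed *Lsd1* alleles on both chromosomes and a CreERT2 transgene driven by the human ACTA1 promoter, which is active in skeletal muscle fibers, so other cells of the muscle were not targeted. WT mice carried floxed *Lsd1* without CreERT2. All mice were 8-week-old C57BL/6 males, and every mouse was given tamoxifen (75 mg/kg, 5 days) and then Dex (1 mg/kg, 7 days), which began on day 4 of the tamoxifen. Dex is a synthetic glucocorticoid that wastes muscle, and no muscle without Dex was compared. There were 16 libraries, from 3 WT and 5 LSD1-mKO samples of each muscle.

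In a muscle fiber, calcium is stored in the sarcoplasmic reticulum, where calsequestrins bind it, and is released through the ryanodine receptor at junctions with the t-tubule. SERCA pumps return it to the store and so end the contraction, and the small membrane proteins sarcolipin and phospholamban hold the pumps back. Fast fibers use SERCA1, calsequestrin 1 and the soluble buffer parvalbumin, whereas SERCA2a and calsequestrin 2 are found in slow fibers and in the heart. Sarcolipin also makes pumping less efficient and releases heat.

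*Sln* and *Pln* encode the shortest proteins of the set, and their coding sequences are shown because these short membrane proteins are the inhibitors of the pumps compared here. In the GENCODE annotation of GRCm38 the *Sln* coding sequence has 31 codons before the stop codon and lies without an intron at chr9:53853473-53853568, plus strand. That of *Pln* has 52 codons and lies at chr10:53343864-53344022, plus strand. Capitals mark the start and stop codons.
Sln: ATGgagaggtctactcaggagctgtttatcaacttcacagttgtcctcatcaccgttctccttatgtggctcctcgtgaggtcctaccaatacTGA
Pln: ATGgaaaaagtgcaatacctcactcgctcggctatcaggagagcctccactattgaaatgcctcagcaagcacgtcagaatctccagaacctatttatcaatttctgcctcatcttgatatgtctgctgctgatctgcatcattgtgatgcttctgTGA

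In Gas the calsequestrin genes lay on opposite sides of WT, so the 250 bases before each transcription start are shown, on the strand of the gene, from RefSeq (GRCm38.p6). The *Casq1* sequence lies at chr1:172219896-172220145 on the minus strand and that of *Casq2* at chr3:102086165-102086414 on the plus strand. Capitals mark E-boxes, the motifs of MyoD-type factors (CAGCTG or CACCTG, searched on both strands, so that CACCTG can appear as CAGGTG).
Casq1: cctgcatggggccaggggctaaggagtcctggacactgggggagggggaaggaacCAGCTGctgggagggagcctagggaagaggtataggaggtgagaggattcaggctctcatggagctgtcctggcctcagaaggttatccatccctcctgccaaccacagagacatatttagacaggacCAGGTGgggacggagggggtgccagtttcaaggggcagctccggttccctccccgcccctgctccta
Casq2: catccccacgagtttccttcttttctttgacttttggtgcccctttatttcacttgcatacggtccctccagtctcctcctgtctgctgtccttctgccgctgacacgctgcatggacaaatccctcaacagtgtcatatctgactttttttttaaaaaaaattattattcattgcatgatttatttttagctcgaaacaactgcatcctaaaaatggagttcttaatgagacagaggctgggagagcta

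Of the 9 genes, 6 had an entry among the 32851 RefSeq promoters (250 bases before to 50 after the start), and *Pvalb* had 2 entries. *Casq1* held CAGCTG at position -195 and CACCTG at position -67 from the start, and *Atp2a1* held CAGCTG at position -55. *Pln* held CAGCTG at position 8 after the start. *Casq2*, *Ryr1* and *Pvalb* held neither motif in this window. CAGCTG was found in 16.3% of all promoters and CACCTG in 20.2%. The NFAT core GGAAA, which occurs in 61.3% of promoters, was present in *Casq2*, *Atp2a1*, *Pln* and 1 entry of *Pvalb*, and TATAAA, in 13.6% of promoters, in *Pln*. These matches describe letters only. *Atp2a2*, *Sln* and *Jph1* had no entry.

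Between 10130415 and 24576377 reads per library were assigned to genes. *Kdm1a*, the gene of LSD1, had between 37.2 and 48.2 CPM (read counts relative to the TMM-scaled size of the library) in WT Gas and between 12.0 and 17.7 CPM in LSD1-mKO Gas, and between 33.4 and 34.9 CPM in WT Sol and between 9.12 and 12.9 CPM in LSD1-mKO Sol, so no library went against its genotype label. Slow fiber markers (*Myh7*, *Myl2*, *Myl3*, *Tnni1*, *Tnnt1*, *Tnnc1*) summed to at least 19617 CPM in each Sol and at most 2322 CPM in each Gas library. The defining heart genes *Myl7* and *Nppa* were at or near 0, with group means of at most 0.0115 and 0.237 CPM. WT Gas replicate 3, LSD1-mKO Gas replicate 5 and WT Sol replicate 2 had the highest ribosomal protein level of their groups (8.60, 7.87 and 7.23 log2 CPM). Several results that rest on them are given with and without them, but not all. The labels number the libraries of a group without naming mice, and the p-values measure the spread between these libraries, which may be technical in part. In whole muscle, fewer fibers of a type and less RNA per fiber cannot be told apart.

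The genes of the set did not differ in 1 direction between WT and LSD1-mKO. *Casq2* rose in LSD1-mKO Sol and was higher in every LSD1-mKO library of both muscles, *Sln* likewise lay above every WT library in both muscles, and *Casq1* lay below WT in Gas but not in Sol. The pumps, the release channel and the junction gene overlapped between genotypes in both muscles. Sol and Gas differed most in *Atp2a2*, *Sln*, *Casq2* and *Pvalb*, in both genotypes.

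**Figure D1:**
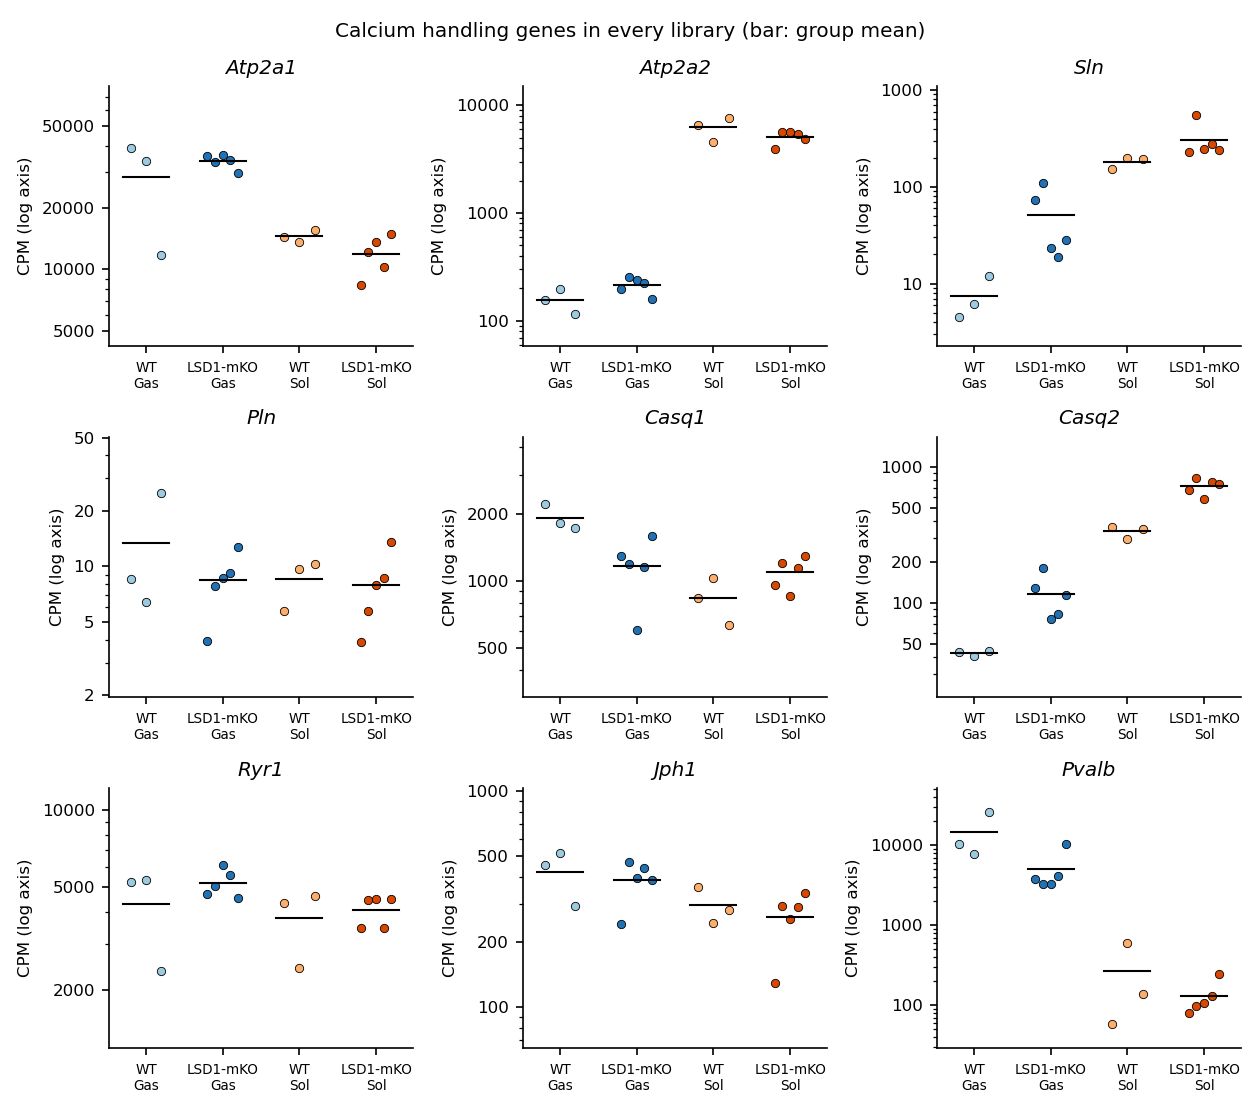
Level of each of the 9 genes (CPM, log axis) in the 16 libraries, by genotype and muscle, with 1 point per library and a bar at the group mean. *Sln* and *Casq2* lie higher in every LSD1-mKO library than in the WT libraries of the same muscle, and *Pvalb* spans from 57.7 CPM in a WT Sol library to 25922 CPM in a WT Gas library.

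In Gas, 0 of the 9 genes had an adjusted p under 0.05 by edgeR's quasi-likelihood test, where 0.0307% of the 13040 genes tested did (4 genes). DESeq2 and the edgeR exact test each called 2 of the 9, *Sln* and *Casq2*. At an unadjusted p under 0.05 there were 4 of the 9, against 9.06% of all genes tested. The genotypes did not overlap for 3 of the 9 (6.95% of all genes tested), with 2 higher (4.13%) and 1 lower (2.82%) in LSD1-mKO. In Sol, 1 of the 9, *Casq2*, was called as higher, where 0.967% of the 13342 genes tested were called and 0.787% as higher. An unadjusted p under 0.05 was found for 2 of the 9 (15.5% of all genes tested). The genotypes did not overlap for 2 of the 9 (10.8%), both higher in LSD1-mKO (6.33%). The median log2 ratio (the log2 fold change of LSD1-mKO over WT) of the 9 was 0.25 in Gas and -0.12 in Sol, and that of all genes tested was 0.01 and -0.01. The comparison asks how the genes depend on LSD1 under Dex.

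**Figure D2:**
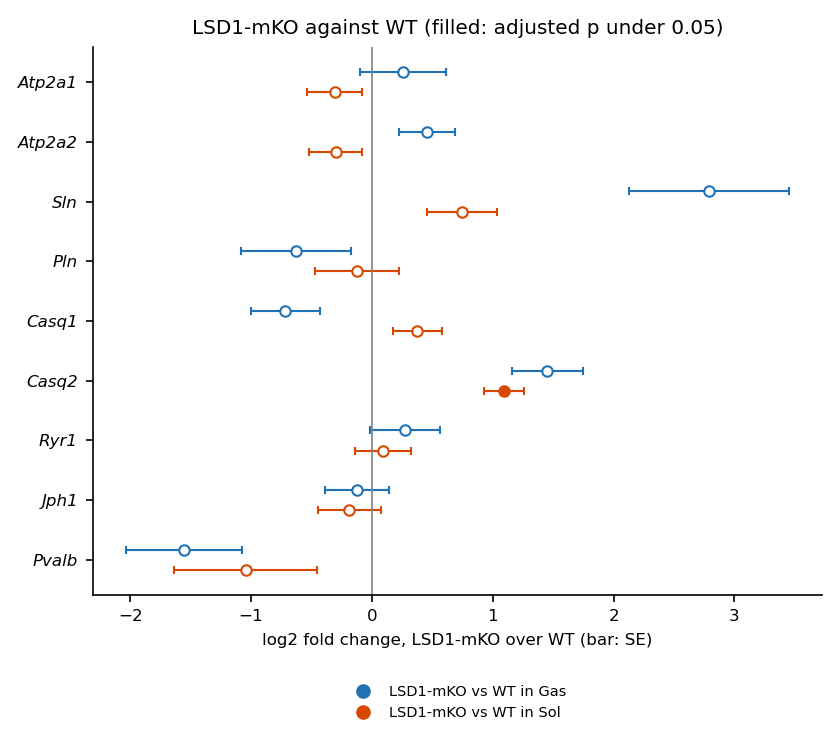
Log2 ratio of LSD1-mKO over WT for each gene in Gas (blue) and Sol (orange), with SE. A filled point has an adjusted p under 0.05 by edgeR's quasi-likelihood test, which holds for *Casq2* in Sol, and *Casq1* lies on opposite sides of 0 in the muscles (-0.72 in Gas, 0.38 in Sol).

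*Sln* (chr9:53850164-53854560, plus strand), which encodes the pump inhibitor sarcolipin, was low in WT Gas, with 86 to 106 reads per library. It had 4.50, 6.09 and 12.0 CPM in WT Gas replicates 1 to 3 and 72.4, 111, 23.4, 19.1 and 28.4 CPM in LSD1-mKO Gas replicates 1 to 5. All LSD1-mKO libraries lay above all WT libraries, and replicates 1 and 2 lay well above the other LSD1-mKO libraries. The fitted log2 ratio was 2.79 (SE 0.66, a 6.90-fold difference in the fit), with an unadjusted p of 0.00167 and an adjusted p of 0.309 by edgeR's quasi-likelihood test. The call came with DESeq2 (adjusted p 0.000665), the edgeR exact test (0.00939) and a quasi-likelihood fit of all 16 libraries (0.0388), and over the fits that kept the 8 Gas libraries the adjusted p reached 0.383. Without WT Gas replicate 3, the WT library with the most *Sln*, the log2 ratio was 3.28 (adjusted p 0.329 by edgeR's quasi-likelihood test). The study followed *Sln* as a slow fiber gene in these same libraries, so its direction here is not independent of the study's RNA-seq. By qRT-PCR the study also reported higher *Sln* in Gas of Dex-treated LSD1-mKO mice. It further reported more of the histone mark H3K4me3 at the *Sln* promoter there.

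In Sol, *Sln* had 153, 197 and 196 CPM in WT and 228, 551, 248, 276 and 238 CPM in LSD1-mKO. Again no LSD1-mKO library fell within the WT range, and LSD1-mKO Sol replicate 2 lay well above all others. Its log2 ratio was 0.75 (SE 0.29, adjusted p 0.244 by edgeR's quasi-likelihood test), and leaving out single libraries gave between 0.43 and 0.86. The lowest, 0.43, was the fit without LSD1-mKO Sol replicate 2.

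*Pln* (chr10:53337667-53345987, plus strand), which encodes phospholamban, the main pump inhibitor of the heart, was low in all groups. It had 8.53, 6.38 and 25.2 CPM in WT Gas and between 3.93 and 12.8 CPM in LSD1-mKO Gas, and between 5.72 and 10.4 CPM in WT Sol and between 3.91 and 13.6 CPM in LSD1-mKO Sol, from 84 to 260 reads per library. Its groups overlapped throughout, and the highest value was that of WT Gas replicate 3. LSD1-mKO over WT gave a log2 ratio of -0.63 in Gas (SE 0.45, adjusted p 0.628 by edgeR's quasi-likelihood test), which turned to 0.19 without WT Gas replicate 3, and -0.12 in Sol (SE 0.35, adjusted p 0.907). Of its 2487 exon bases 141 lie in exons of *Cep85l*. The counting used no strand and no overlap option, so reads there may have been left uncounted.

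*Atp2a1* (chr7:126445858-126463108, minus strand), which encodes SERCA1, the pump of fast fibers, had 39391, 33991 and 11799 CPM in WT Gas and between 29510.3 and 36277 CPM in LSD1-mKO Gas. WT Gas replicate 3 lay far below every other Gas library. The fitted log2 ratio was 0.25 (SE 0.35, adjusted p 0.792 by edgeR's quasi-likelihood test) and -0.11 without WT Gas replicate 3. In Sol, *Atp2a1* had 14391, 13689 and 15613 CPM in WT and between 8425 and 14917 CPM in LSD1-mKO, with overlap and a log2 ratio of -0.31 (SE 0.23, adjusted p 0.572). Of its 3477 exon bases 763 also lie in exons of *Rabep2*. Reads there may likewise be missing from its count, and the levels per kb and pump shares were not corrected for this.

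*Atp2a2* (chr5:122453513-122502225, minus strand), the gene of SERCA2, the pump of slow fibers and heart, had 157, 197 and 116 CPM in WT Gas and 197, 256, 239, 222 and 160.2 CPM in LSD1-mKO Gas. The groups overlapped, and the log2 ratio was 0.46 (SE 0.23, adjusted p 0.555 by edgeR's quasi-likelihood test). In Sol it had 6598, 4532 and 7541 CPM in WT and between 3908 and 5652 CPM in LSD1-mKO, also with overlap (log2 ratio -0.30, SE 0.22, adjusted p 0.559). Leaving out single libraries gave log2 ratios between 0.29 and 0.68 in Gas and between -0.48 and -0.13 in Sol. On the scale of CPM per kb of transcript, *Atp2a2* made up 0.503% ± 0.230 (SD, n = 3) of the summed pumps in WT Gas and 0.488% ± 0.0691 (SD, n = 5) in LSD1-mKO Gas, and 24.6% ± 3.68 (SD, n = 3) in WT Sol and 25.2% ± 3.22 (SD, n = 5) in LSD1-mKO Sol. The shares of the genotypes overlapped in both muscles.

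*Casq2* (chr3:102086415-102146514, plus strand), which encodes a calsequestrin found in slow fibers and heart, had 43.5, 40.5 and 44.7 CPM in WT Gas and 130.0, 181, 76.0, 82.5 and 115 CPM in LSD1-mKO Gas. The WT libraries lay close together, and every LSD1-mKO library lay above them. Its log2 ratio was 1.45 (SE 0.29, a 2.73-fold difference), with an unadjusted p of 0.000505 and an adjusted p of 0.196 by edgeR's quasi-likelihood test. As with *Sln*, DESeq2 (adjusted p 0.000721), the exact test (0.00263) and the fit of all 16 libraries (0.0221) called it, and the adjusted p reached 0.339 over the fits that kept the 8 libraries.

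In Sol, *Casq2* had 363, 296 and 351 CPM in WT and 677, 834, 581, 779 and 755 CPM in LSD1-mKO, with a wide gap between the genotypes. It rose by a log2 ratio of 1.10 (SE 0.16, 2.14-fold, adjusted p 0.0155 by edgeR's quasi-likelihood test). The fold change moved little without single libraries (1.02 to 1.17), but without WT Sol replicate 1, 2 or 3 the adjusted p was 0.0644, 0.0553 or 0.0891.

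*Casq1* (chr1:172209894-172219868, minus strand), which encodes the calsequestrin that prevails in fast fibers, lay on the other side of WT in Gas. It had 2228, 1822 and 1744 CPM in WT Gas and 1299.5, 1197, 602, 1165 and 1604 CPM in LSD1-mKO Gas, and every LSD1-mKO library lay below every WT library. LSD1-mKO over WT gave a log2 ratio of -0.72 (SE 0.29, adjusted p 0.526 by edgeR's quasi-likelihood test). In Sol it had 841, 1031 and 639 CPM in WT and 966, 1209.8, 859.6, 1153 and 1306 CPM in LSD1-mKO, with overlap (log2 ratio 0.38, SE 0.20, adjusted p 0.416).

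The share of *Casq2* in the summed calsequestrins, per kb of transcript, was 1.39, 1.58 and 1.82% in WT Gas and 6.74, 9.85, 8.37, 4.87 and 4.92% in LSD1-mKO Gas. It was 23.8, 17.2 and 28.4% in WT Sol and 33.6, 33.3, 32.8, 32.8 and 29.5% in LSD1-mKO Sol. In both muscles the genotypes did not overlap, with means of 1.60% ± 0.212 (SD, n = 3) and 6.95% ± 2.18 (SD, n = 5) in Gas, and 23.1% ± 5.65 (SD, n = 3) and 32.4% ± 1.67 (SD, n = 5) in Sol. The summed calsequestrins were 1062 ± 141 CPM per kb (SD, n = 3) in WT Gas and 681 ± 204 (SD, n = 5) in LSD1-mKO Gas. In Sol they were 585 ± 96.0 (SD, n = 3) in WT and 879 ± 133 (SD, n = 5) in LSD1-mKO. They were thus lower in every LSD1-mKO library in Gas and higher in every one in Sol. No test was made on these shares and sums.

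Sarcolipin transcripts per 100 pump transcripts, per kb and with both pumps summed, numbered 0.0761, 0.119 and 0.675 in WT Gas and 1.35, 2.19, 0.428, 0.371 and 0.640 in LSD1-mKO Gas. The highest WT value, that of replicate 3, lay within the LSD1-mKO range. In Sol there were 5.24, 7.64 and 6.10 in WT and 13.3, 22.2, 9.20, 12.8 and 8.48 in LSD1-mKO, with no overlap. *Pln* stayed at or below 0.476 per 100 pump transcripts in every library.

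**Figure D3:**
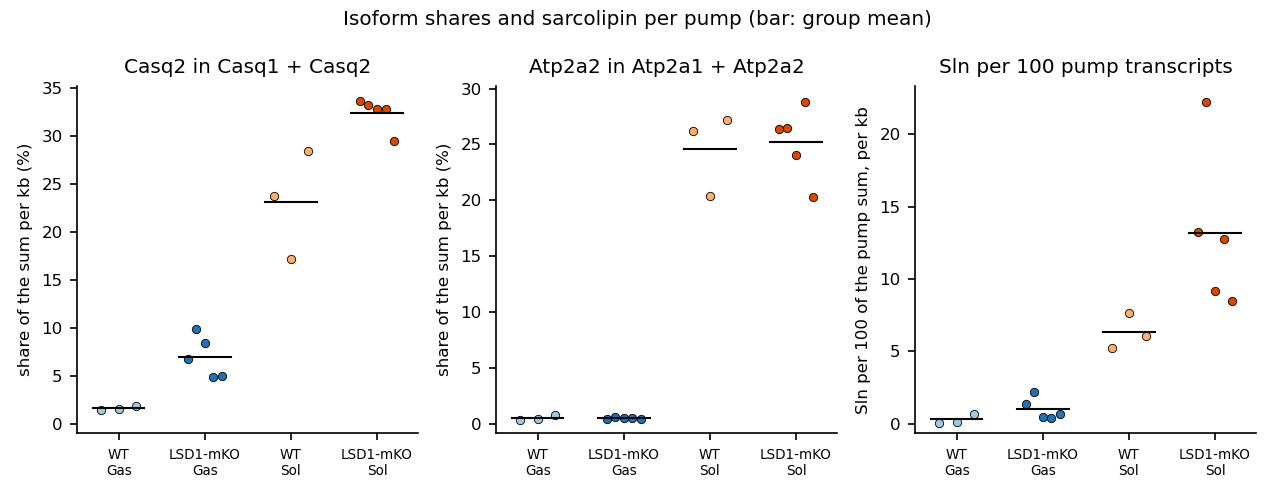
*Casq2* share of the calsequestrins, *Atp2a2* share of the pumps (both in %) and *Sln* per 100 pump transcripts, all per kb of transcript, with 1 point per library and a bar at the group mean. The *Casq2* share separates the genotypes in both muscles (group means 1.60 and 6.95% in Gas, 23.1 and 32.4% in Sol), whereas the *Atp2a2* share separates the muscles but not the genotypes.

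*Ryr1* (chr7:29003344-29125179, minus strand), the gene of the release channel, had 5234, 5323 and 2362 CPM in WT Gas and between 4567 and 6102 CPM in LSD1-mKO Gas. In Sol it had 4356, 2423 and 4651 CPM in WT and between 3465 and 4524 CPM in LSD1-mKO. In each muscle the lowest value was that of the WT library with the high ribosomal protein level, and the groups overlapped. The fitted log2 ratio was 0.27 in Gas (SE 0.29, adjusted p 0.724 by edgeR's quasi-likelihood test) and 0.09 in Sol (SE 0.23, adjusted p 0.893), and was -0.01 in Gas without WT Gas replicate 3 and -0.14 in Sol without WT Sol replicate 2.

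*Jph1* (chr1:16964560-17097889, minus strand) encodes junctophilin 1, which ties the reticulum to the t-tubule. It had 455, 516 and 293 CPM in WT Gas and between 243 and 466 CPM in LSD1-mKO Gas, and 359.9, 244 and 282 CPM in WT Sol and between 129 and 335 CPM in LSD1-mKO Sol. LSD1-mKO replicate 1 had the lowest value in both muscles. Its log2 ratio was -0.12 in Gas (SE 0.26, adjusted p 0.870 by edgeR's quasi-likelihood test) and -0.19 in Sol (SE 0.26, adjusted p 0.790).

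*Pvalb* (chr15:78191114-78206400, minus strand), which encodes parvalbumin, the calcium buffer of fast fibers, had 10435, 7652 and 25922 CPM in WT Gas and 3781, 3254, 3254, 4155 and 10439.8 CPM in LSD1-mKO Gas. All but 1 of the LSD1-mKO libraries lay below WT, and LSD1-mKO Gas replicate 5 lay within the WT range. LSD1-mKO over WT gave a log2 ratio of -1.55 (SE 0.48, adjusted p 0.426 by edgeR's quasi-likelihood test), with a range from -2.02 to -0.86 when single libraries were left out, the weakest being that without WT Gas replicate 3. In Sol, WT had 57.7, 597 and 138 CPM and LSD1-mKO 79.7, 96.2, 106, 132 and 242 CPM. WT Sol replicate 2 alone lay above LSD1-mKO, and without it the log2 ratio turned from -1.04 (SE 0.59, adjusted p 0.435) to 0.41.

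Sol and Gas were then compared within each genotype, in 1 fit of the 16 libraries. In WT, 5 of the 9 genes were called, where 17% of the 13749 genes tested were, with 3 higher (8.75% of all genes) and 2 lower (8.25%) in Sol. In LSD1-mKO, 5 were called as well, where 24.5% of all genes were, with 3 higher (12.9%) and 2 lower (11.6%). The muscles did not overlap in WT for 3 genes that were higher (15.9%) and 2 that were lower in Sol (14.5%), and in LSD1-mKO for 3 higher (11.2%) and 3 lower (9.65%). Muscle and set of libraries cannot be told apart, since each muscle was counted in its own table. *Atp2a2* was 39.7-fold higher in Sol than in Gas in WT (log2 ratio 5.31, SE 0.30, adjusted p 9.42e-09 by edgeR's quasi-likelihood test) and 23.7-fold higher in LSD1-mKO (4.57, SE 0.22, adjusted p 9.62e-10). *Casq2* was higher in Sol by 2.97 in WT (SE 0.28, adjusted p 3.46e-06) and 2.63 in LSD1-mKO (SE 0.21, adjusted p 2.92e-07). *Sln* was higher by 4.62 in WT (SE 0.64, adjusted p 0.000123) and 2.60 in LSD1-mKO (SE 0.45, adjusted p 0.000447). These slow fiber members lay higher in every Sol library than in any Gas library of the same genotype.

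*Pvalb* was the member most strongly reduced in Sol, 55.5-fold in WT (log2 ratio -5.79, SE 0.84, adjusted p 0.000188 by edgeR's quasi-likelihood test) and 38.0-fold in LSD1-mKO (-5.25, SE 0.64, adjusted p 1.74e-05). *Casq1* was lower in WT Sol (-1.21, SE 0.29, adjusted p 0.00861), whereas in LSD1-mKO the log2 ratio was near 0 (-0.09, SE 0.22, adjusted p 0.787). The WT call of *Casq1* was lost without WT Sol replicate 3 (-1.04, adjusted p 0.0576). *Atp2a1* was lower in LSD1-mKO Sol (-1.51, SE 0.26, adjusted p 0.000492), and in WT it had -0.96 (SE 0.34, adjusted p 0.0572), or -1.36 without WT Gas replicate 3 (adjusted p 0.00119).

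*Ryr1*, *Jph1* and *Pln* were not called between the muscles in either genotype by this fit, though *Ryr1* and *Jph1* were under some alternatives. For *Jph1* the log2 ratio was -0.51 in WT (SE 0.31, adjusted p 0.273 by edgeR's quasi-likelihood test) and -0.57 in LSD1-mKO (SE 0.24, adjusted p 0.0968). A further fit had genotype and replicate number as a block, which pairs same-numbered libraries of the muscles in both genotypes. Same-numbered WT libraries had correlations of 0.156, -0.577 and -0.315, so their pairing has no backing. In this fit *Jph1* was called in LSD1-mKO with -0.60 (adjusted p 0.0278 by edgeR's quasi-likelihood test), and so 6 of the 9 genes were. *Ryr1* had -0.18 in WT (SE 0.29, adjusted p 0.719 by edgeR's quasi-likelihood test) and -0.35 in LSD1-mKO (SE 0.23, adjusted p 0.283). In a fit that held a ribosomal protein covariate it was called as lower in Sol, with -0.89 in WT (adjusted p 0.0215 by edgeR's quasi-likelihood test) and -0.76 in LSD1-mKO (adjusted p 0.00340), and with transcript length offsets in LSD1-mKO with -0.67 (adjusted p 0.00473). *Pln* had -0.61 in WT (SE 0.50, adjusted p 0.426) and -0.09 in LSD1-mKO (SE 0.39, adjusted p 0.892).

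**Figure D4:**
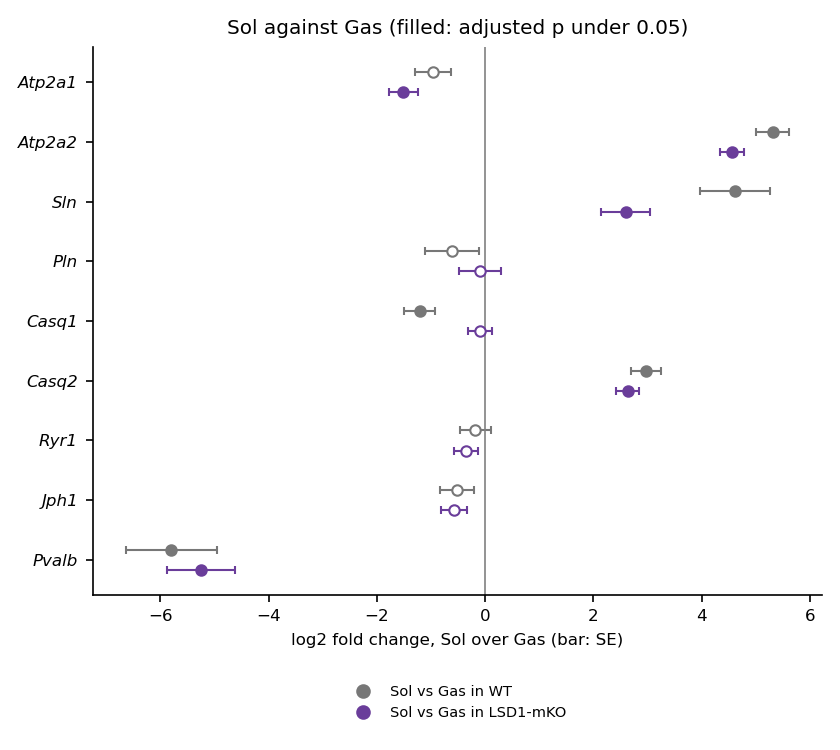
Log2 ratio of Sol over Gas for each gene in WT (grey) and LSD1-mKO (purple), with SE. Filled points have an adjusted p under 0.05 by edgeR's quasi-likelihood test, 5 in each genotype, with *Casq1* filled in WT and *Atp2a1* in LSD1-mKO.

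Whether the genotype effect differed between the muscles was tested as an interaction. None of the 9 genes was called by edgeR's quasi-likelihood test (0 of 9, against 0% of 13749 genes) or by DESeq2, which called 21 genes in all. At an unadjusted p under 0.05 there were 3 of the 9, against 4.88% of all genes. *Casq1* had a difference (Sol effect minus Gas effect) of 1.11 on the log2 scale (SE 0.36, unadjusted p 0.00670, adjusted p 0.802 by edgeR's quasi-likelihood test), *Sln* one of -2.02 (SE 0.71, unadjusted p 0.0114, adjusted p 0.942) and *Atp2a2* one of -0.75 (SE 0.32, unadjusted p 0.0304, adjusted p 0.987). For *Casq2* it was -0.34 (SE 0.33, adjusted p 0.987). These effects are therefore not shown to differ between Gas and Sol.

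Levels were ordered per length, as CPM per kb of transcript. In WT Gas the order of the means was *Pvalb* (15201 ± 10201, SD, n = 3), *Atp2a1* (8178 ± 4212), *Casq1* (1046 ± 141), *Ryr1* (280.4 ± 109.7), *Jph1* (87.6 ± 23.9), *Atp2a2* (34.9 ± 8.99), *Casq2* (16.8 ± 0.845), *Sln* (14.5 ± 7.61) and *Pln* (8.66 ± 6.66). *Pvalb* and *Atp2a1* lay within their spread of each other, as did *Casq2*, *Sln* and *Pln*. In LSD1-mKO Gas *Atp2a1* came first (9754 ± 769.5, SD, n = 5) and *Pvalb* next (5157 ± 3189), and *Sln* (97.7 ± 76.5) lay within its spread of *Jph1* (80.4 ± 18.1). The places of *Sln* depend on the transcript length used.

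In WT Sol the order was *Atp2a1* (4195 ± 280.4 CPM per kb, SD, n = 3), *Atp2a2* (1387 ± 343), *Casq1* (453 ± 106), *Sln* (349.6 ± 48.1), *Pvalb* (274 ± 302), *Ryr1* (248 ± 78.8), *Casq2* (132 ± 14.1), *Jph1* (61.4 ± 12.3) and *Pln* (5.56 ± 1.62). From *Casq1* to *Ryr1*, neighbors lay within their spread of each other. In LSD1-mKO Sol, *Casq2* (284 ± 38.5, SD, n = 5) stood just above *Ryr1* (266 ± 36.8) and *Pvalb* (136 ± 67.2), within its spread of *Ryr1*, and *Sln* (592 ± 263) and *Casq1* (595 ± 98.7) had nearly equal means. *Sln* per kb rests on a length of 520 bases. The GENCODE transcript has 1318 bases, and with it *Sln* per 100 pump transcripts was 2.50 in WT Sol and 5.21 in LSD1-mKO Sol in place of 6.32 and 13.2.

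Other genes of the pathway were read from 3 lists. On the release side, 16 genes of the triad and t-tubule were tested, and 0 were called between genotypes in either muscle. *Trdn*, whose product triadin anchors calsequestrin to the release channel, had the lowest p of this list in Gas, with a log2 ratio of -1.64 (SE 0.53, adjusted p 0.439 by edgeR's quasi-likelihood test), and its values of between 1759 and 5925 CPM in WT Gas and between 323 and 1936 CPM in LSD1-mKO Gas overlapped. *Cacnb1* (0.63, SE 0.14, adjusted p 0.0658) and *Cacng1* (1.08, SE 0.27, adjusted p 0.0921), subunits of the calcium channel that senses the voltage, came nearest to a call in Sol. At an unadjusted p under 0.05 the list had 3 genes in Gas (9.06% of all genes tested) and 5 in Sol (15.5% of all). Between muscles, *Cacng1* was lower in Sol in WT (-1.88, adjusted p 0.000466 by edgeR's quasi-likelihood test). In LSD1-mKO it had -0.65 (adjusted p 0.0457), a call lost with the ribosomal protein covariate (-0.34, adjusted p 0.273), with length offsets (adjusted p 0.0794) and when WT Gas replicate 1, WT Sol replicate 3, LSD1-mKO Gas replicate 1, 2 or 5 or LSD1-mKO Sol replicate 2, 3, 4 or 5 was left out (adjusted p between 0.0510 and 0.114). *Ryr3*, a further release channel with at most 5.03 CPM, had 1.11 between the muscles in LSD1-mKO (adjusted p 0.0386 by edgeR's quasi-likelihood test), which was no longer called with the covariate (0.71, adjusted p 0.253), with length offsets (adjusted p 0.0818) or without LSD1-mKO Gas replicate 1, 4 or 5 or LSD1-mKO Sol replicate 2 or 4 (adjusted p between 0.0854 and 0.110).

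Of 13 genes of the store and of uptake (*Strit1* was not matched), 0 were called in Gas and 1 in Sol, *Camk2b*, the gene of a subunit of the calcium and calmodulin-dependent kinase. *Camk2b* had between 155 and 166 CPM in WT Sol and between 255 and 311 CPM in LSD1-mKO Sol, without overlap, and rose by a log2 ratio of 0.84 (SE 0.13, adjusted p 0.0155 by edgeR's quasi-likelihood test). The call was lost without WT Sol replicate 1 (adjusted p 0.0644), WT Sol replicate 3 (0.0915) or LSD1-mKO Sol replicate 2 (0.0577). *Mrln*, the gene of myoregulin, a further small pump inhibitor, had between 88.1 and 269 CPM in WT Gas and between 8.32 and 104 CPM in LSD1-mKO Gas (log2 ratio -1.99, SE 0.77, adjusted p 0.523), and between 7.06 and 17.7 CPM in WT Sol and between 1.54 and 8.81 CPM in LSD1-mKO Sol (-1.28, SE 0.53, adjusted p 0.279), with overlap in both muscles. *Mrln* was lower in Sol than in Gas, by -3.64 on the log2 scale in WT (adjusted p 0.0120 by edgeR's quasi-likelihood test) and -2.91 in LSD1-mKO (adjusted p 0.00608), opposite to *Sln*. The call in WT was lost with the ribosomal protein covariate (-1.98, adjusted p 0.149) and without WT Sol replicate 1 (adjusted p 0.0594) or 3 (0.0658). *Camk2a* and *Camk2g* were also lower in Sol in both genotypes, so that 3 of the 13 were called lower in WT (8.25% of all genes tested). In LSD1-mKO 4 were lower (also *Ppp1r3a*, 11.6% of all genes) and 3 higher (12.9% of all; *Camk2b*, *Dmpk* and *Tmem38b*).

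Of 12 genes of calcium entry, extrusion and mitochondrial uptake, 0 were called between genotypes. *Slc8a3*, a sodium-calcium exchanger, had the lowest p in Gas (log2 ratio 1.02, SE 0.31, adjusted p 0.426 by edgeR's quasi-likelihood test). Between muscles, *Mcu*, the pore of the mitochondrial calcium uniporter, and its regulator *Micu2* were higher in Sol in both genotypes (log2 ratios from 1.12 to 1.20, adjusted p at most 0.00135). *Stim2*, a sensor of the store's calcium, was lower in Sol (-2.07 in WT and -1.17 in LSD1-mKO, adjusted p at most 6.16e-05), and so was the exchanger gene *Slc8a1*. In WT, 4 genes of this list were called higher (8.75% of all genes tested) and 2 lower (8.25%) in Sol, and in LSD1-mKO 5 higher (12.9%) and 3 lower (11.6%).

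Fiber markers stand beside these results. In Gas, the slow fiber markers summed to 902, 798 and 2095 CPM in WT and to between 1412 and 2322 CPM in LSD1-mKO, with the WT library of 2095 CPM, replicate 3, inside the LSD1-mKO range. The fast fiber markers (*Myh4*, *Myh1*, *Myl1*, *Tnni2*, *Tnnt3*, *Actn3*) summed to between 115005 and 131962 CPM in WT Gas and between 79816 and 117589.5 CPM in LSD1-mKO Gas, with overlap. They did not move together. *Actn3* was higher in every LSD1-mKO Gas library (between 15868 and 19706 CPM) than in WT Gas (between 5990 and 15353 CPM). *Myl1* was lower in every one (between 2108 and 4561 CPM) than in WT Gas (between 7630 and 9559 CPM). Among all genes tested in Gas, 4.13% lay higher and 2.82% lower without overlap. Of the slow and fast markers, 0 were called between genotypes in Gas or Sol. In Gas, 2 slow and 2 fast markers had an unadjusted p under 0.05 (9.06% of all genes tested), and in Sol 0 slow and 3 fast did (15.5% of all). In Sol, where *Casq2* rose, the slow marker sums were between 21268 and 27659 CPM in WT and between 19617 and 25367 CPM in LSD1-mKO. The fast marker sums in Sol were between 22984 and 34527 CPM in WT and between 13270 and 27573 CPM in LSD1-mKO, with overlap. *Myh4* (74.7 CPM in WT Sol and 463 CPM in LSD1-mKO Sol) and *Actn3* (305 and 806 CPM) had higher means in LSD1-mKO. The other fast markers had lower ones there, among them *Myh1* (7657 and 2864 CPM). *Myh1* was the only fast marker without overlap in Sol, with between 6109 and 8494 CPM in WT and between 562 and 5232 CPM in LSD1-mKO. Among all genes tested in Sol, 10.8% did not overlap. The part of fiber composition in these differences was not tested.

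Other cell types were read from marker lists. Heart markers summed to between 5.43 and 14.1 CPM in Gas, with overlap. In Sol, where *Casq2* rose, their sum was higher in every LSD1-mKO library (between 25.8 and 34.7 CPM) than in WT (between 22.7 and 25.2 CPM). The rise was mainly that of *Tnnt2*, with means of 8.27 CPM in WT Sol and 13.5 CPM in LSD1-mKO Sol. *Myh6*, the highest heart marker in WT Sol, had similar means (14.3 and 14.8 CPM) and overlapped. The other heart markers had means of at most 0.909 CPM in Sol. By edgeR's quasi-likelihood test 0 of the 3 heart markers high enough to test were called (1 at an unadjusted p under 0.05). Satellite cell markers in Sol likewise had higher sums in LSD1-mKO (between 5.82 and 7.85 CPM) than in WT (between 4.97 and 5.47 CPM). There *Pax7* did not overlap (at most 2.94 CPM in WT, at least 3.02 CPM in LSD1-mKO), whereas *Myf5* did. Fibroblast markers had lower sums in LSD1-mKO Gas (between 818 and 980.3 CPM) than in WT Gas (between 1208 and 1883 CPM). Only *Col1a2* did not overlap there (at least 291 CPM in WT, at most 208 CPM in LSD1-mKO), whereas *Col1a1*, *Dcn* and *Pdgfra* did. Among all genes tested, 6.33% lay higher in Sol and 2.82% lower in Gas without overlap. Neutrophil and macrophage markers reached 122 CPM in LSD1-mKO Gas and 50.9 CPM in WT Gas, with overlap. In Sol they summed to between 7.87 and 12.6 CPM in WT and between 10.2 and 34.3 CPM in LSD1-mKO, with overlap. Within this list, only the macrophage gene *Cd68* was higher without overlap in LSD1-mKO, and it was so in both muscles. In Gas it had between 2.36 and 3.78 CPM in WT and between 4.07 and 6.19 CPM in LSD1-mKO. In Sol it had between 2.60 and 3.15 CPM in WT and between 6.34 and 24.5 CPM in LSD1-mKO. Among all genes tested, 4.13% lay higher without overlap in Gas and 6.33% in Sol. The sums of adipocyte, nerve and smooth muscle markers overlapped between genotypes in both muscles. The part of these cells in the results was not tested.

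Across the 16 libraries, with the mean of each muscle subtracted from log2 CPM, *Sln* and *Casq2* went together (Pearson r = 0.866). These points share 4 groups, so the value describes the genotype difference as well as the spread within groups. The genes most like *Sln* among 10283 were *Myl2* (r = 0.904) and *Zfp930* (r = 0.892), and those most like *Casq2* were *Ttc9* (r = 0.950) and *Gdi2* (r = 0.917). *Casq1* was most like *Calm3* and *Hacd1*, *Atp2a1* most like *Pygm* and *Dhdh*, *Atp2a2* like *Slc20a2* and *Kif16b*, *Ryr1* like *Sptb*, *Jph1* like *Ppp1r3a* and *Kcnq5*, *Pln* like *Smarca2* and *Idh1*, and *Pvalb* like *Cdkn2d* and *Ggnbp1* (r between 0.902 and 0.962).

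Several members varied with the ribosomal protein level of the libraries on the same scale (n = 16). The correlation was negative for *Ryr1* (r = -0.855), *Atp2a2* (-0.819) and *Atp2a1* (-0.718) and positive for *Pvalb* (0.819) and *Pln* (0.641), whereas *Sln* (-0.157) and *Casq2* (-0.253) showed little of it. Both measures come from the same library, with its depth and preparation. What lies behind this was not tested.

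**Figure D5:**
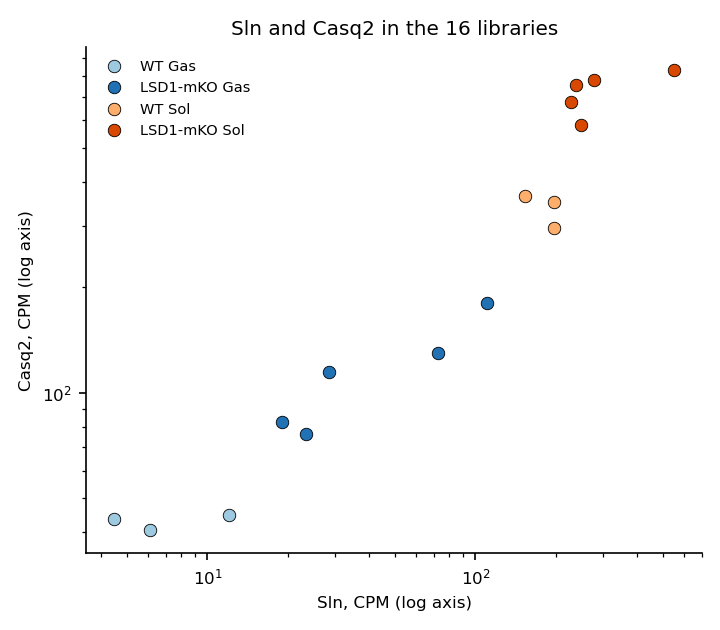
*Sln* against *Casq2* in the 16 libraries (CPM, log axes), 1 point per library, colored by group. The 4 groups follow each other along both axes, from WT Gas through LSD1-mKO Gas and WT Sol to LSD1-mKO Sol.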

How the data were processed

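RNA-seq of whole gastrocnemius (Gas) and soleus (Sol) muscle was analyzed in 16 libraries, grouped by the sample labels. The authors aligned 75 bp single-end reads to mm10 with STAR and counted reads on exons with featureCounts 1.5.2, without a strand, multi-mapping or overlap option, and deposited raw counts per gene, 1 table per muscle. Tables of the authors' own comparisons (log2 fold change, mean log2 CPM, p and adjusted p) were not used. The members, gene lists and tests were chosen with earlier results of these data known.

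Counts were filtered with filterByExpr (minimum count 10), scaled by TMM and tested with edgeR 4.0.16 (glmQLFit and glmQLFTest, R 4.3.3) over all genes, with Benjamini-Hochberg adjustment and a threshold of 0.05. Genotypes were compared in 1 fit per muscle, and muscles and the interaction in 1 fit of the 16 libraries. CPM use TMM factors of the 16 libraries together. Levels per kb use the median GENCODE M21 transcript length within the RefSeq gene span (GRCm38). Named genes are the 9 members, *Kdm1a*, and of each pathway list the genes called and at most 3 with the lowest p, and the 2 genes most correlated with each member. Results of 2 genes that this rule names are not reported here. On simulated counts with 200 changed genes (median absolute log2 change 2.02 in Gas and 1.98 in Sol), 180 were recovered in the Gas comparison (11 false calls among 12913 genes) and 185 in the Sol comparison (15 false calls among 13185 genes). With 200 genes changed, the adjustment for many tests is milder than in the real Gas comparison, where 4 genes were called. The recovered share therefore does not measure the power for the 9 members.

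Alternatives were RLE scaling, no filter, DESeq2 1.42.0, the edgeR exact test, robust dispersion, a ribosomal protein covariate, length offsets, a replicate block, all 16 libraries in one fit and leaving out each library. Same-numbered Gas and Sol libraries of LSD1-mKO deviated together (correlations of 0.372, 0.259, 0.390, 0.243 and 0.353 for replicates 1 to 5, each Gas library best with its own number). For WT the correlations were 0.156, -0.577 and -0.315, and no Gas library was best with its own number. The main fit of the muscles had no block and so did not pair libraries. Only alternatives with a replicate block did, and in the fits of all 16 libraries the block paired both genotypes. That pairing comes from the numbers in the labels and, for LSD1-mKO, this check, since no label says that both muscles came from 1 mouse.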

Additional observations from a re-analysis of the deposited data

Results flagged for a closer look

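Of 26 sets of 5 LSD1-mKO libraries examined, 3 held a library far from the other 4, with a gap to its neighbor of over 0.71 of the whole range. For separate sets of normally distributed values, chance gives about 1 in 20, or 1.3 of 26. These sets share libraries, and the ratios reuse values of the genes, so 3 cannot be weighed against 1.3. *Sln* in LSD1-mKO Sol replicate 2 had 551 CPM against 228 to 276 CPM in the others (gap 0.849 of the range). *Pvalb* in LSD1-mKO Gas replicate 5, a library with a high ribosomal protein level, had 10439.8 CPM against 3254 to 4155 CPM (gap 0.875). The *Casq2* share of the calsequestrins in LSD1-mKO Sol replicate 5 was 29.5% against 32.8 to 33.6% (gap 0.803), still above every WT Sol library. Groups of 3 WT libraries were not examined in this way.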

How the results depend on the processing

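In Gas, 2 of the 9 genes (*Sln* and *Casq2*) were called in place of 0 with DESeq2, with the edgeR exact test and with all 16 libraries in one fit, where 132, 104 and 62 genes were called in all, in place of 4. In Sol, *Casq2* was no longer called, so that 0 genes were in place of 1, without WT Sol replicate 1, 2 or 3, and the count ranged from 0 to 1 when single libraries were left out. With the replicate number as a block within Sol, the count was also 0 (*Casq2* 1.03, edgeR adjusted p 0.0531), while 412 genes were called in place of 129. WT and LSD1-mKO libraries share only a number there (correlations 0.0965, -0.00796 and 0.154). Between the muscles in WT, 8 genes were called in place of 5 with the replicate block and a ribosomal protein covariate together, chosen after seeing the data. This block pairs same-numbered WT libraries of the muscles, which did not deviate together (correlations 0.156, -0.577 and -0.315). *Casq1* was no longer called in WT with the covariate alone (-0.96, edgeR adjusted p 0.0622). In LSD1-mKO the counts were 5 to 7 under all alternatives, with *Jph1* added by the block, the covariate (edgeR adjusted p 0.0209), length offsets (0.0251) and without LSD1-mKO Gas replicate 1 (0.0466), and *Ryr1* by the covariate (0.00340), length offsets (0.00473) and without both WT libraries that stand apart (0.0441). The interaction had 0 of the 9 under every alternative run. The cause of these changes was not tested.

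Some directions turned. With the ribosomal protein covariate they were *Pln* in Gas (0.063), between muscles in WT (0.63 in place of -0.61) and LSD1-mKO (0.50), *Casq1* between muscles in LSD1-mKO (0.070), and the interaction of *Pln* (-0.13), *Ryr1* (0.13) and *Jph1* (0.14). With the block and the covariate they were *Pln* between muscles in WT (0.24) and LSD1-mKO (0.27), *Casq1* in LSD1-mKO (0.16), and the interaction of *Ryr1* (0.19) and *Jph1* (0.11). With length offsets they were *Ryr1* in Sol (-0.018) and *Pln* between muscles in LSD1-mKO (0.0100). Without both WT libraries that stand apart they were *Pln* between muscles in WT (0.079) and the interaction of *Pln* (-0.19) and *Jph1* (0.031), and without WT Gas replicate 3 and LSD1-mKO Gas replicate 5 together *Atp2a1* in Gas (-0.053).

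Leaving out single libraries gave log2 fold changes on both sides of 0 in Gas for *Atp2a1* (-0.11 to 0.56), *Pln* (-0.94 to 0.19), *Ryr1* (-0.0092 to 0.48) and *Jph1* (-0.32 to 0.073). It did so in Sol for *Pln* (-0.39 to 0.076), *Ryr1* (-0.14 to 0.27), *Jph1* (-0.30 to 0.0021) and *Pvalb* (-1.50 to 0.41). For the interaction it did so for *Pln* (-0.29 to 0.83), *Ryr1* (-0.41 to 0.12), *Jph1* (-0.24 to 0.15) and *Pvalb* (-0.15 to 1.96). Between muscles it did so in WT for *Pln* (-0.92 to 0.17) and *Ryr1* (-0.50 to 0.058), and in LSD1-mKO for *Pln* (-0.37 to 0.11) and *Casq1* (-0.28 to 0.040). *Sln*, *Casq2* and *Atp2a2* kept their direction in every comparison and under every alternative run.

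Without division by length, *Casq2* made up 2.20, 9.35, 29.3 and 39.9% of the calsequestrins in WT Gas, LSD1-mKO Gas, WT Sol and LSD1-mKO Sol, and *Atp2a2* made up 0.629, 29.6 and 30.3% of the pumps in the last 3 of these groups. *Sln* per 100 pump reads was then 0.149, 0.884 and 1.84 and *Pln* 0.0256, 0.0417 and 0.0459 in the same 3 groups. With the full GENCODE length, *Sln* per 100 pump transcripts was 2.50 in WT Sol and 5.21 in LSD1-mKO Sol. The 3 WT libraries per muscle, and the 84 to 260 reads of *Pln*, limit what could be detected.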
